A study of Spirodela polyrhiza with 4 samples.

Results

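Short H3K9me2 peaks that lie beside another peak were examined in line 9509 of *Spirodela polyrhiza*, the greater duckweed, a small floating monocot that mostly reproduces by clonal division. A peak is a region in which chromatin immunoprecipitation with an antibody against dimethylated lysine 9 of histone H3 (H3K9me2) yielded more reads than the estimated background. The peaks were selected on their position alone: a length under 1000 bp and a gap of 1000 bp or less to the nearest other peak of the same chromosome, before or after it. Of the 5726 peaks in the list, 2511 were under 1000 bp, and 1380 of these lay beside another peak. The other 1131 short peaks, whose nearest neighbor was farther than 1000 bp, serve as the comparison. The list comes from 1 ChIP-seq library of the 4 samples in the series, made from whole plants of line 9509 that were grown sterile and clonally without any treatment, crosslinked and sonicated. The methods name Schenk and Hildebrandt salts as the medium and the labels a Hoagland mixture. An input library of the same line and DNA methylation libraries of lines 9509 and 7498 make up the rest of the series and were not analysed here. With 1 library of pooled plantlets there is no replicate error, so all differences below are descriptions of this list, and the cell types within the plantlets cannot be told apart.

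In flowering plants, H3K9me2 marks heterochromatin, the condensed and mostly silent chromatin of transposons and other repeats. It acts together with DNA methylation: the methyltransferase CMT3 is recruited to H3K9me2 and methylates CHG sites, and the histone methyltransferases of the mark bind methylated DNA in turn. Broad marks of this kind cover whole elements, and a broad peak caller joins nearby enriched positions into 1 peak when they lie close enough. Short peaks beside another peak are therefore places where the list holds separate regions across a gap that was not bridged. No genome sequence or annotation was used here, so the genes and repeats under these peaks are not given. All positions refer to the line 9509 genome as used in the list, and the sources used here give no build name for it.

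The short peaks beside another peak made up 55.0% of all peaks under 1000 bp (95% Wilson interval 53.0 to 56.9%) and 24.1% of all peaks. This interval, like the others given below, covers counting error only and treats neighboring peaks as independent. Close neighbors were about as common among longer peaks: across all peaks, 56.2% had a gap of 1000 bp or less, with 57.3% of the 2466 peaks of 1000 to under 5000 bp and 56.6% of the 749 peaks of 5000 bp or more. These shares are fixed in part by the rule and were not tested. Together the 1380 peaks held 779877 bp, or 5.75% of the summed peak length, because each was small. The median peak was 533 bp long (quartiles 396 and 727 bp) and the longest 997 bp, against 508 bp (quartiles 383 and 702 bp) for the median of the other short peaks. The shortest, at the smallest length of the whole list, numbered 24 among the 1380 and 28 among the other short peaks.

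The gap to the nearest peak had a median of 446.5 bp (quartiles 339 and 627.5 bp). The smallest gaps equaled the smallest of the whole list, 285 bp, and 806 of the 1380 short peaks (58.4%) had one under 500 bp. The 100-bp class from 300 to 399 bp alone held 469 of them, whereas 75 had a gap of 900 to 1000 bp. Another 105 had a gap under 300 bp, a class that the list fills only from 285 bp on. The gaps thin out toward the threshold without a break there, so peaks on either side of 1000 bp formed a continuous range. Just inside the threshold lay the peak of 805 bp on chromosome 2 from 7357273 to 7358077, with a gap of 999 bp and a fold enrichment of 1.68, and the peak of 673 bp on chromosome 9 from 3230320 to 3230992, with a gap of 998 bp and a fold enrichment of 1.80. Just outside lay the peak of 549 bp on chromosome 9 from 2439500 to 2440048, with 1003 bp and 1.97, and that of 604 bp on chromosome 2 from 7120570 to 7121173, with 1009 bp and 2.00. At the length threshold, the longest included peaks were that on chromosome 19 from 3829609 to 3830605 (997 bp) and that on chromosome 17 from 1424131 to 1425125 (995 bp). The shortest peaks with a close neighbor that were left out were on chromosome 16 from 3960567 to 3961566 (1000 bp) and on chromosome 1 from 5260472 to 5261473 (1002 bp).

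**Figure D1:**
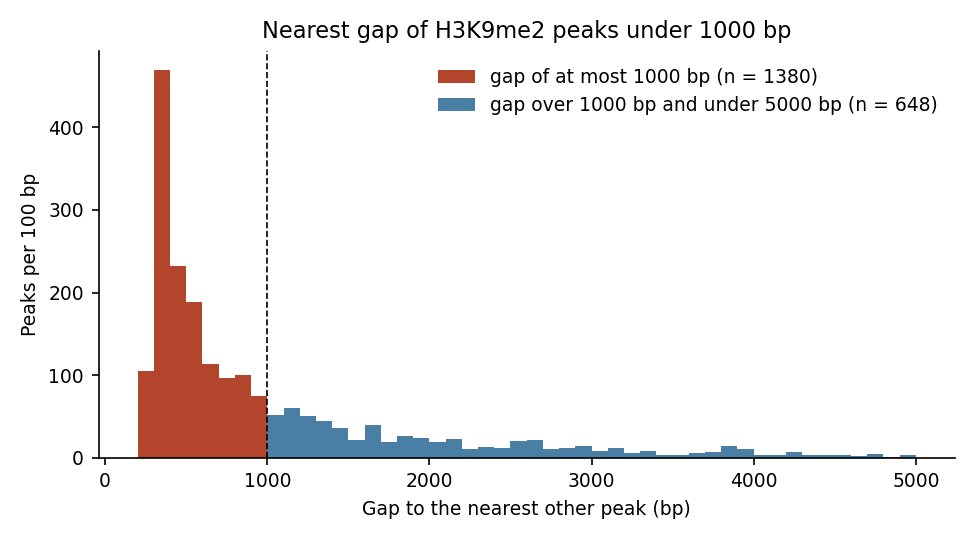
Number of peaks under 1000 bp (vertical axis, per 100 bp) by the gap to the nearest other peak (horizontal axis, bp), drawn up to 5000 bp, with the threshold of 1000 bp as a dashed line. The red bars are the 1380 short peaks beside another peak. The bar from 300 to 399 bp holds 469 peaks. The bar before it holds 105, and no gap in the list is under 285 bp, so that bar is only partly filled. The counts decline across the threshold into the blue bars of the other short peaks.

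Enrichment of these peaks was low, and close to that of the other short peaks. The fold enrichment, which MACS2 gives as the signal of a peak over the estimated background, had a median of 1.82 (quartiles 1.73 and 1.97, range 1.44 to 3.72). The other short peaks had a median of 1.81 (quartiles 1.71 and 1.96, range 1.56 to 4.15), so the medians differed by 0.00558 and the middle ranges overlapped almost whole. Across all peaks the median was 2.07. On 8 of the 20 chromosomes the median of the short peaks beside another peak was the higher one. A q under 0.01 was reached by 715 of the 1380 peaks, or 51.8% (95% Wilson interval 49.2 to 54.4%), against 49.4% (46.5 to 52.3%) of the other short peaks and 75.7% of all peaks. The intervals of the 2 sets of short peaks overlapped. A q under 1e-05 was reached by 71 peaks (5.14%) beside another peak and by 44 others (3.89%), with 36.0% across all peaks. At least 2-fold enrichment was found in 304 (22.0%) and 218 (19.3%), with 55.7% across all peaks. Fold enrichment and q come from the same comparison of signal and background that placed the peaks, so no test was made on them.

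Within the short peaks, longer ones were slightly more enriched. Among those beside another peak, the median fold enrichment was 1.77 at 300 to 399 bp and 1.92 at 900 to 999 bp, and the other short peaks went from 1.76 to 1.96 between the same classes. The shortest class, under 300 bp, departed from this order with 1.86 beside another peak and 1.82 elsewhere. In the 8 classes of 100 bp the difference between the sets ranged from −0.0446 to 0.0420 and was positive in 5, so neither set was the higher one throughout. The rank correlation of fold enrichment with length was 0.21 over the 1380 peaks and 0.26 over the 1131 others, peaks that share 1 library.

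**Figure D2:**
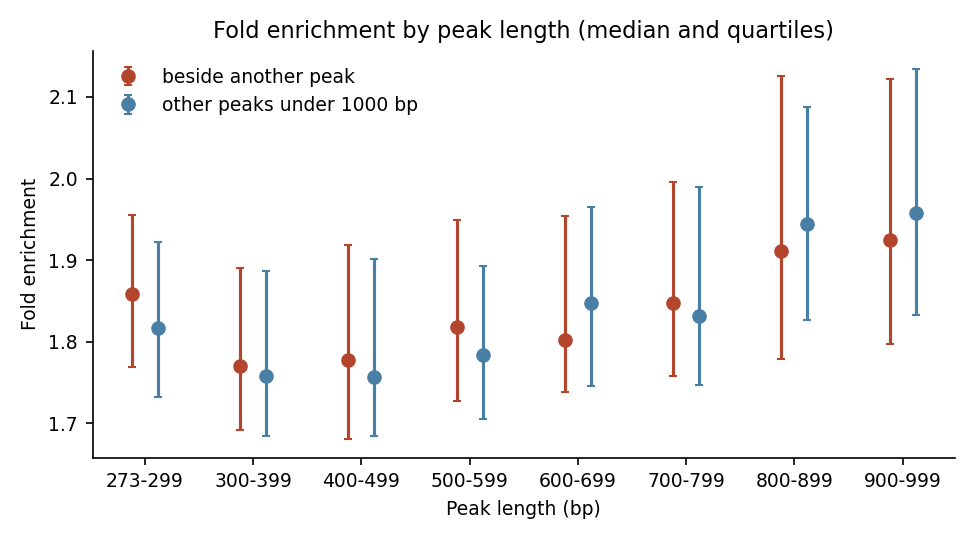
Fold enrichment (vertical axis, ratio of signal to estimated background) by peak length (horizontal axis, bp) for short peaks beside another peak (red) and other peaks under 1000 bp (blue). Points are medians and bars reach from the lower to the upper quartile. The sets overlap in every class, with medians from 1.77 to 1.92 in red and 1.76 to 1.96 in blue.

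The neighbors were of all lengths, in a mix close to that of nearest neighbors across the whole list. The median nearest neighbor was 1082.5 bp long (quartiles 540 and 2667 bp, longest 20359 bp), close to the 1134 bp (quartiles 529 and 2686 bp) of the nearest neighbor of the other short peaks. It was 1000 bp or longer for 727 of the 1380 peaks (52.7%), for 54.3% of the other short peaks and for 56.0% of all peaks. A neighbor of at least 5000 bp was found for 151 peaks (10.9%), of which 34 stood beside one of 10000 bp or more. The share was 11.4% among the other short peaks and 12.9% among all peaks. The remaining 653 peaks had another short peak as nearest neighbor, which by the rule is itself one of the 1380, and 273 pairs were each other's nearest. In all, 1293 distinct peaks served as nearest neighbor, 87 of them for a short peak on either side. The length of a short peak was hardly related to that of its neighbor, with a rank correlation of −0.015 over the 1380 peaks, with pairs that are each other's nearest counted from both sides.

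The short peaks beside the longest neighbors had fold enrichments of 1.84 to 2.11, against a median of 1.82 and an upper quartile of 1.97 for all 1380. On chromosome 10, the peak of 360 bp from 25225 to 25584 followed a peak of 20359 bp at a distance of 314 bp, with a fold enrichment of 2.06 beside one of 5.66. On chromosome 14, the peak of 470 bp from 4315580 to 4316049 preceded a peak of 19630 bp by 712 bp, with 1.84 beside 4.34. On chromosome 19, the peak of 632 bp from 2485314 to 2485945 lay 750 bp after a peak of 16066 bp, with 2.11 beside 3.21. In the part of chromosome 1 from 8200000 to 9700000, 1 of the 5 short peaks had a close neighbor: the peak from 9140115 to 9140835, of 721 bp and enriched 1.86-fold, stood 570 bp before a peak of 12772 bp with 3.98. In each of these cases the short peak was the weaker of the pair. This was largely set by the length of these neighbors. Of all peaks of 5000 bp or more, 99.9% were enriched at least 2-fold, against 22.0% of the 1380.

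Fold enrichment of the short peaks hardly varied with the length of the neighbor, while that of the neighbor rose with its own length. Beside neighbors under 500 bp the short peaks had a median of 1.83 and the neighbors 1.79. Beside neighbors of 2000 to under 5000 bp the medians were 1.82 and 2.57, and beside those of 10000 bp or more 1.85 and 3.21. Counted from each of the 1380 short peaks, the neighbor had the higher value for 982 (71.2%), which include 127 of 299 with a neighbor under 500 bp, 115 of 117 with one of 5000 to 9999 bp and 34 of 34 with a longer one. This count takes the 273 mutual pairs of short peaks from both sides, so it covers 1107 distinct pairs, and each mutual pair gives 1 higher and 1 lower value by construction. Without the 546 short peaks of these pairs, the neighbor was the higher one for 709 of 834 (85.0%). This removal takes out only neighbors under 1000 bp, and 727 of the 834 left have a neighbor of 1000 bp or more. The 85.0% therefore describes mostly longer neighbors. Among the other short peaks, counted from each peak, 70.8% were below their nearest neighbor. Their own mutual pairs were kept, here and in the correlation between neighbors below, so the 70.8% stands beside the 71.2%. Across all peaks the neighbor was the higher one for 49.9%, and fold enrichment rose with length (rank correlation 0.77). Short peaks had low values in general, so these shares do not show a relation particular to a short peak and its neighbor. The rank correlation between the fold enrichment of a short peak and of its nearest neighbor was 0.13 over the 1380 short peaks, with mutual pairs counted from both sides, 0.043 over the 834 outside such pairs and 0.070 over the other short peaks, all weak.

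**Figure D3:**
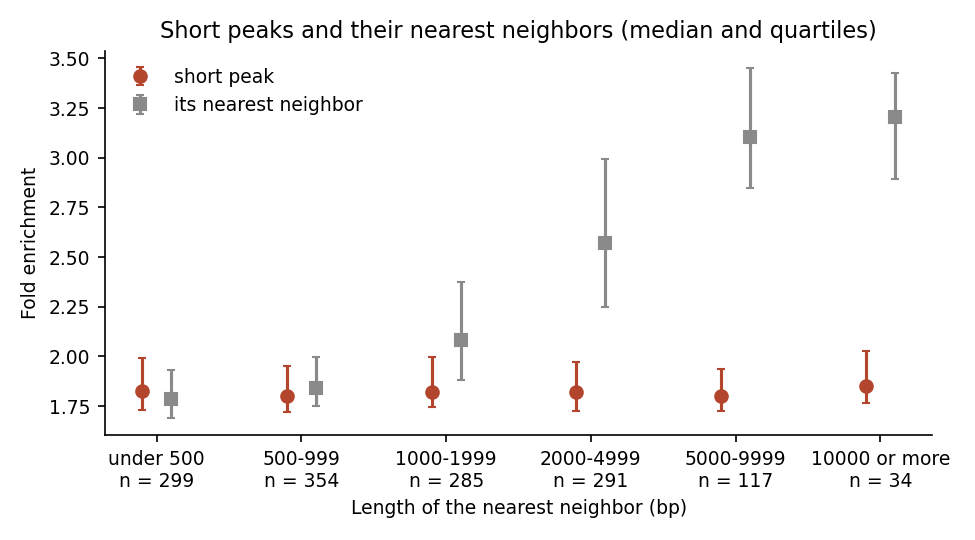
Fold enrichment (vertical axis, ratio of signal to estimated background) of the 1380 short peaks (red circles) and of their nearest neighbors (grey squares) by the length of the neighbor (horizontal axis, bp), with the number of short peaks under each class. Points are medians and bars reach from the lower to the upper quartile. The short peaks stay between 1.80 and 1.85, while the neighbors rise from 1.79 to 3.21.

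Short peaks at the smallest gap, which 7 of them had, showed the variety of neighbors. The peak of 712 bp on chromosome 4 from 7110000 to 7110711 (fold enrichment 1.74) followed a peak of 5554 bp with 2.42, and the next peak after it, 687 bp away, was 12876 bp long. The peak of 549 bp on chromosome 6 from 380107 to 380655 (1.79) preceded a peak of 4169 bp with 3.50. The peak on chromosome 11 from 2407416 to 2407964 (1.78), also of 549 bp, preceded a still shorter one of 313 bp with 1.80.

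Neighbors lay on either side about equally often. Peaks carry no strand, so upstream here means toward lower coordinates. The nearest neighbor was upstream for 704 peaks (51.0%) and downstream for 676 (49.0%), counting as upstream the 1 peak whose gaps were equal. The share upstream was 51.8% among the other short peaks. By chromosome it ranged from 34.6% on chromosome 20, which had only 26 such peaks, to 56.8% on chromosome 7. Of the 1380 peaks, 1071 had a neighbor within 1000 bp on 1 side only, 545 upstream and 526 downstream. For the 1068 of these that were neither first nor last on their chromosome, the gap on the far side had a median of 7547 bp (quartiles 2309 and 39182 bp), and 476 (44.6%) faced more than 10000 bp without a peak. By definition these short peaks stood at an end of their group of close peaks.

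A smaller set of 309 short peaks (22.4%, 95% Wilson interval 20.3 to 24.7%) had neighbors within 1000 bp on both sides. The share was similar among peaks of any length with a gap of 1000 bp or less, 722 of 3218. Taken over all peaks under 1000 bp it was 12.3%, against 12.6% across the whole list. Of the 309, 97 (31.4%) lay between peaks that were each 1000 bp or longer, 145 (46.9%) had such a peak on 1 side, and 67 (21.7%) lay between short peaks. Their median fold enrichment was 1.84 (quartiles 1.73 and 2.01), against 1.81 (quartiles 1.73 and 1.96) for those with a neighbor on 1 side. It was 1.84 between longer peaks, 1.83 with a longer peak on 1 side and 1.87 between short peaks. Seen from the long peaks, 174 of the 749 peaks of at least 5000 bp (23.2%) had one of the 1380 within 1000 bp, 86 upstream only, 78 downstream only and 10 on both sides. For peaks of 1000 to under 5000 bp the share was 27.1%.

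Peaks that follow each other with gaps of at most 1000 bp form a run, and 905 of the 1248 runs in the list (72.5%) held at least 1 of the short peaks. By the rule every peak under 1000 bp in a run is one of these, and they were 1380 of the 3218 peaks in runs. The 72.5% depends on that share and on the run sizes, and was not tested. Runs of 2 peaks held 716 of the 1380 (51.9%), runs of 3 held 342 (24.8%) and longer runs 322 (23.3%). In 200 runs every peak was under 1000 bp. These runs had 433 of the short peaks (31.4%), 169 of them were pairs, and they spanned 1030 to 4272 bp with a median of 1725 bp. The other 947 short peaks shared a run with at least 1 peak of 1000 bp or more, and 671 of them (70.9%) stood at an end of it, 326 as the first peak and 345 as the last. Both peaks of a run of 2 stand at an end by construction, so the 70.9% is fixed in part and shows no preference for the ends. Median fold enrichment was 1.80 (quartiles 1.71 and 1.95) in the runs of short peaks alone and 1.82 (quartiles 1.73 and 1.98) in the others, and 47.6% and 53.7% had a q under 0.01, both below the 75.7% of all peaks.

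The run with the most short peaks lay on chromosome 12 from 1193627 to 1202485 and consisted of 8 peaks within 8859 bp. Its first peak, of 1193 bp, had a fold enrichment of 1.99, and the 7 short peaks after it ranged from 1.71 to 1.97 in fold enrichment and reached 923 bp in length. The gaps between these short peaks were at most 613 bp, and the run began 104153 bp after the preceding peak. On chromosome 5, the run with the most peaks had 11 between 4388485 and 4412611, of which 6 were short. There, 1 short peak of 481 bp with a fold enrichment of 1.78 preceded 4 longer peaks with 2.75 to 3.34, followed by a peak of 1238 bp with 1.80 and 5 short peaks with 1.64 to 1.92. The short peaks of both runs were similar in fold enrichment but not in q. Their −log10 q was 1.16 to 2.19 on chromosome 12, whereas on chromosome 5 it was 2.09 for the first short peak and 4.63 to 9.74 for the other 5.

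**Figure D4:**
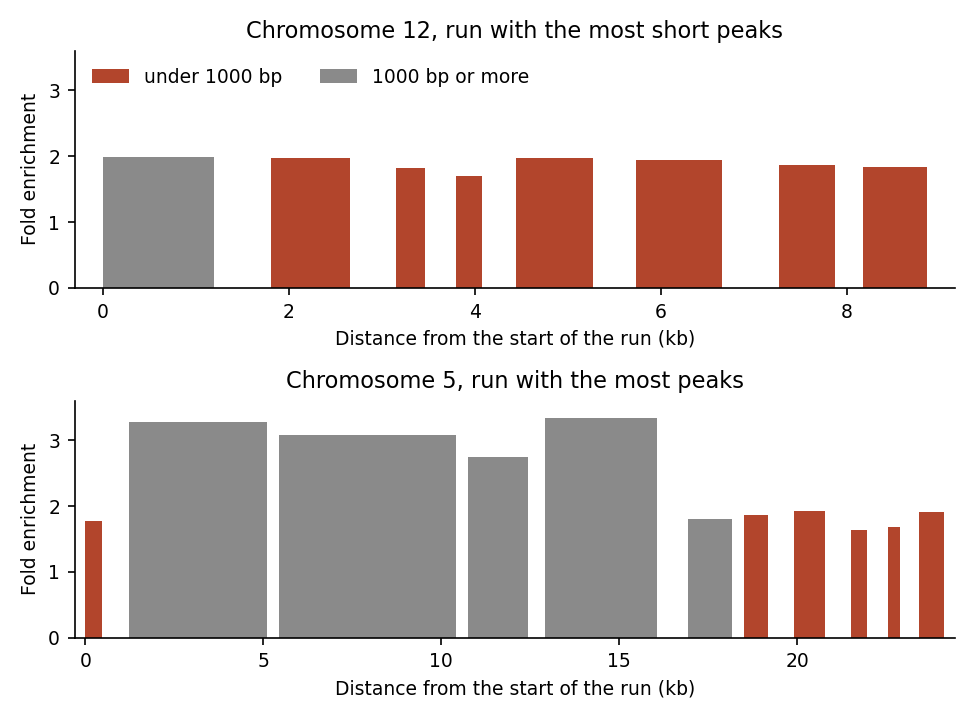
Peaks of the run on chromosome 12 with the most short peaks (top) and of the run on chromosome 5 with the most peaks (bottom), drawn to scale along the distance from the start of the run (horizontal axis, kb), with bar height as fold enrichment (vertical axis). Peaks under 1000 bp are red and longer peaks grey. The 7 red bars on chromosome 12 reach 1.71 to 1.97, and on chromosome 5 the 4 tallest grey bars reach 2.75 to 3.34 while the 6 red bars stay at 1.64 to 1.92.

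The most enriched of the short peaks did not stand beside the longest neighbors. On chromosome 7, the peak of 709 bp from 4838318 to 4839026 reached 3.72, with its nearest neighbor, 403 bp long and enriched 2.14-fold, 818 bp upstream. Another on chromosome 7, of 941 bp from 4998567 to 4999507, reached 3.53 and lay 382 bp after a peak of 450 bp with 1.82. The peak of 779 bp on chromosome 4 from 7049331 to 7050109 reached 3.30 and followed a peak of 3005 bp with 2.80 at 339 bp. On chromosome 1, the peak of 758 bp from 10940649 to 10941406 (3.27) had a short peak with 2.72 on each side, 290 bp before and 322 bp after it. The peak of 621 bp on chromosome 14 from 4752173 to 4752793 (3.13) preceded a peak of 449 bp with 1.98 by 352 bp. Each of these 5, which were chosen by their fold enrichment, was above its nearest neighbor. At least 3-fold enrichment was reached by 8 of the 1380 (0.580%) and by 6 of the other short peaks (0.531%), with 14.8% across all peaks.

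All 20 chromosomes had such peaks, with 26 on chromosome 20 to 103 on chromosome 1. As a share of the peaks under 1000 bp they made up a median of 54.2% per chromosome (SD 6.33, n = 20 chromosomes). Chromosome 11 had the highest share, 65.1% (84 of 129), followed by chromosome 1 with 63.6% (103 of 162), and chromosome 6 the lowest, 44.8% (73 of 163), next to chromosome 20 with the same rounded value (26 of 58). Their median fold enrichment varied little between chromosomes, from 1.78 to 1.88. The share whose nearest neighbor was at least 1000 bp long varied more, from 41.0% on chromosome 14 to 72% on chromosome 2. Median length was higher than that of the other short peaks on 14 of the 20 chromosomes.

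**Figure D5:**
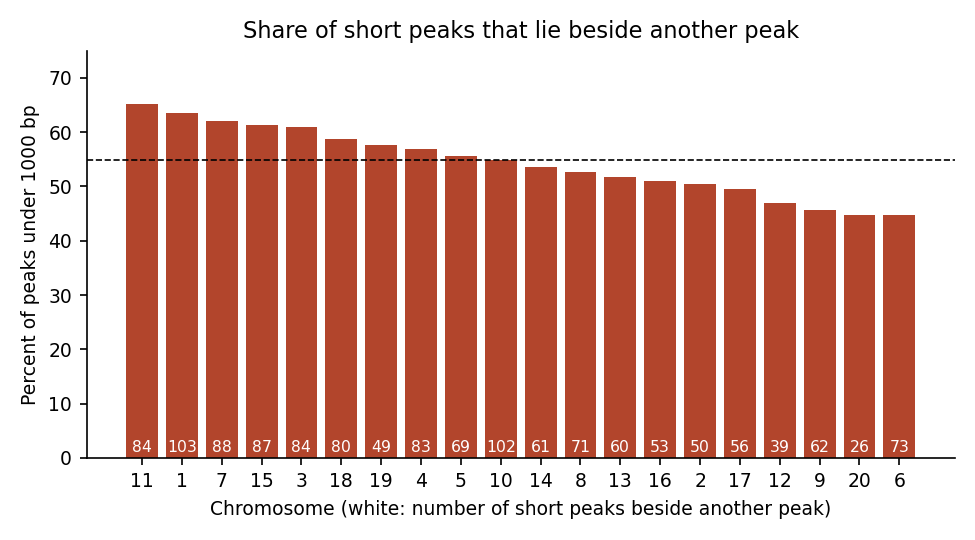
Share of the peaks under 1000 bp that lie beside another peak (vertical axis, percent) on each of the 20 chromosomes (horizontal axis), ordered by the share, with the number of such peaks in white. The dashed line marks the 55.0% of all chromosomes together, and the bars run from 65.1% on chromosome 11 to 44.8% on chromosome 6.

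Other peaks were denser around the short peaks beside another peak than around the other short peaks. Within 25 kb on either side of the midpoint, and leaving out the peak and its nearest neighbor, the median share of sequence under other peaks was 16.4% (quartiles 5.84 and 33.3%) around the short peaks beside another peak and 4.50% (quartiles 0 and 18.6%) around the other short peaks. Within this distance, 121 of the 1380 (8.77%) and 387 of the 1131 (34.2%) had no further peak. No value over all peaks is given for this distance, so neither set can be compared with the whole list there. The median coverage was higher around the short peaks beside another peak on all 20 chromosomes. Part of this is set by the rule, since the other short peaks have no peak within 1000 bp on either side. Farther out, from 25 to 100 kb, the median coverage was 12.8% (quartiles 4.47 and 26.8%) against 8.60% (quartiles 3.53 and 17.5%), with 11.8% around all peaks, and it was higher on 17 of 20 chromosomes. At this distance the short peaks beside another peak were thus near the whole list, and the other short peaks lay below it. Among the other short peaks, 198 had their nearest peak beyond 25 kb, which no short peak beside another can have. The middle ranges of both sets overlapped at either distance, and no test was made.

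Short peaks beside another peak occurred in 722 of the 2770 windows of 50 kb (26.1%), whereas 1696 windows had a peak of any kind. Few windows had many of them: 25 windows held at least 5, and these accounted for 140 of the 1380 (10.1%). The window with the most was on chromosome 18 from 3450001 to 3500000, where 9 of 19 peaks were short and beside another. It was followed by the window on chromosome 5 from 4400001 to 4450000 with 8 of 15, which holds part of the run described above, and by windows on chromosomes 7 and 14 with 7 each, from 5500001 to 5550000 and from 3400001 to 3450000. Most of the short peaks thus lay in windows with fewer than 5 of them, which does not show that they were evenly spread along the chromosomes.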

How the data were processed

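One list of broad H3K9me2 peaks from 1 library was used. The authors trimmed reads with Trimmomatic, mapped them with bowtie1 (at most 2 mismatches, unique placement), removed duplicates with Picard and ran MACS2 in broad mode. The sources used here give neither versions nor whether the input served as control. The deposited fold enrichment is the ratio of signal to estimated background from MACS2. The deposited −log10 p and −log10 q come from the same program. The deposited score repeats the −log10 q as 10 times its value without decimals, and was not used. Uniquely placed reads miss near-identical repeats. The list holds no read counts, so the depth behind a peak is unknown.

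Peaks were sorted per chromosome, length was end minus start, and the gap was the number of bases between peaks. Nearest gaps matched those of bedtools 2.31.1 for 5726 of 5726 peaks, and the search was tested on simulated lists. Printed starts are 1-based. Intervals for shares are 95% Wilson intervals. Chromosome length was the end of the last peak. Python 3.11.15, NumPy 2.4.6, pandas 2.3.3, SciPy 1.17.1 and Matplotlib 3.10.9 were used.

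The peaks studied, the thresholds and the rule for named regions were chosen with earlier results of these data known. Named regions are the 5 with the highest fold enrichment, the 3 with the longest neighbor, the 3 with the smallest gap, those next to each threshold, the run with the most short peaks, one part of chromosome 1 and extreme chromosomes. The run with the most peaks, the windows with the most short peaks and the peaks under "Other observations" were picked with their values known. Alternatives changed the length limit, the gap limit, the peak list, and the use of end peaks and of chromosome 1. No test was made, because 1 library gives no replicates and the rule uses the same peak calls.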

Additional observations from a re-analysis of the deposited data

How the results depend on the processing

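Of 63 values recomputed, 38 stayed within the 95% binomial interval of the main value (for the number of peaks, within a factor of 1.5) and 25 moved out of it. With short peaks under 750 bp, the median length was 466 bp, the median fold enrichment 1.80 and the share with a q under 0.01 46.5%, and with a limit 250 bp above the main one they were 577 bp, 1.84 and 56.0%. With a gap of at most 500 bp, 810 peaks remained in the set by construction, 32.3% of the short peaks, with a median fold enrichment of 1.83, 54.6% with a q under 0.01 and 11.9% with neighbors on both sides. With a gap of at most 2000 bp the share of short peaks was 69.9% and that with neighbors on both sides 33.3%. In the list of peaks with a q under 0.01, 575 peaks met the rule, 45.1% of the short peaks, with a median length of 562 bp, a median fold enrichment of 1.97, 65.2% with a neighbor of at least 1000 bp and 19.3% with neighbors on both sides. In the list of peaks enriched at least 2-fold, 204 peaks met it, 39.1% of the short peaks, with 594 bp, 2.16, 100% with a q under 0.01 and 69.6% with a neighbor of at least 1000 bp. The median fold enrichment of the other short peaks under the same settings was 1.79, 1.83, 1.81, 1.80, 1.96 and 2.15, in this order. The results thus rest in part on weak peaks, and the list has no replicate and no read counts to set a limit on them.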

Other observations

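At a few short peaks beside another peak, the fold enrichment and the q gave different pictures. Of the 1076 that were enriched less than 2-fold, 9 had a q under 1e-05, whereas the median −log10 q of the 1076 was 1.84. That share, 0.836%, was near the 0.670% of all peaks (17 of 2536, of which 7 were at least 1000 bp long). Among the other short peaks it was 1 of 913. The 9 peaks lay in 2 places. On chromosome 5, 6 of them fell between 4408386 and 4433040, where 7 short peaks lay beside another peak. The peak of 891 bp from 4408386 to 4409276 had a fold enrichment of 1.92 and a −log10 q of 9.74, and that of 343 bp from 4411037 to 4411379 had 1.69 and 5.72. The remaining short peak of this stretch, from 4416664 to 4416936, had the lowest fold enrichment of all 1380, 1.44, and a −log10 q of 2.05. On chromosome 7, 3 of 6 short peaks beside another peak between 5523943 and 5548376 showed the same, with fold enrichments of 1.71 to 1.77 and −log10 q of 6.77 to 7.55. For comparison, the peak of 403 bp on chromosome 9 from 5157870 to 5158272 had a fold enrichment of 1.56 and a −log10 q of 1.08. The reads of the input library were not analysed here, and the difference between both values at these places was not tested.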
